A study of Mus musculus with 6 samples.

Results

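Stressed epidermis makes a recognisable set of proteins at its surface. S100a8 and S100a9 encode calcium-binding proteins that assemble into calprotectin, an antimicrobial alarmin carried in bulk by neutrophils and also made by keratinocytes of inflamed skin. Stfa1 and Stfa3 encode mouse stefins, inhibitors of cysteine proteases related to cystatin A. Sprr1b encodes a small proline-rich protein that is crosslinked into the cornified envelope, the protein shell of the outermost keratinocytes. Klk13 encodes a kallikrein-related serine protease, and Ly6d encodes a lipid-anchored surface protein of the Ly6/uPAR family found on stratified epithelium. These 7 genes were followed by name through every cell class. Each has a column in all 6 cell-by-gene tables, which have 16158 gene columns in common.

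Single cells came from the skin of 6 mice, 2 in each of 3 groups. All were NINJA mice, an engineered strain carrying a neoantigen under an inducible switch, were 6 to 12 weeks old, and gave cells from the skin area treated with 4-OH-Tam (4-hydroxytamoxifen). NO_AG mice had the antigen off, AG mice had it on, and AG_CPI mice had it on together with CPI, a label that is not spelled out in the sources used here. Before sequencing, visible skin pathology and the entry and function of P14 CD8 T cells (T cells with 1 fixed receptor) had been checked in each animal. The cells in which the antigen was switched on, the sex of the mice, the time since treatment and any batch are not given in the sources used here.

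The tables held 1736 to 4972 cells a mouse and 5903724 to 24656382 unique molecular identifiers (UMIs, counted RNA molecules). Levels are given as the mean over cells of UMIs per 10000 UMIs of the cell. After filtering, 20464 of 21178 cells were kept, and 255 of 20921 barcodes occurred in more than 1 library. Keratinocyte-like cells, clusters named from marker genes without the 7 genes or their near relatives, came to 2982 and 2388 for NO_AG, 1185 and 2267 for AG, and 191 and 491 for AG_CPI. AG mouse 2 stood apart, since 83.0% of its keratinocyte-like cells carried a UMI of a leukocyte gene, against 23.6% to 54.6% in the other 5 mice. AG_CPI mouse 1 stood apart in another way: outside T-like cells, 16.1% of its cells carried the Y-linked gene Ddx3y, which had no UMI there in the other 5 mice. Xist, expressed from the inactive X of females, was found in 2.17% of these cells but in 55.2% of its T-like cells, against 66.5% to 84.9% of the cells outside T-like cells in the other 5 mice. Ddx3y was found in 2.91% of the T-like cells of AG_CPI mouse 1. The cause was not tested.

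The promoters of Stfa3 and Sprr1b are shown here because the levels of these genes in the epidermis carry most of the values below. They come from RefSeq on GRCm38.p6 and end at the base before the gene's annotated span on mm10, with capitals marking letters matched to a motif. Distances to the first letter of a motif are counted back from the RefSeq start. Stfa3 lies on chromosome 16 (36450537 to 36455392, minus strand), and the stretch shown is chr16:36455393-36455512. Its capitals are GATAAG, the core letters bound by GATA factors, 65 bases before the start. Sprr1b lies on chromosome 3 (92436809 to 92438789, minus strand), and the stretch shown is chr3:92438790-92438899. Its RefSeq start lies 10 bases inside that span. Its capitals are TGAATCA, a match to the AP-1 letters TGANTCA 111 bases before the RefSeq start, and the TATA box letters TATAAA 30 bases before it.
Stfa3: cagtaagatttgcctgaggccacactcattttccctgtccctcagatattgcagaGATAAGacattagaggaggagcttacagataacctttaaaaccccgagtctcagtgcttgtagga
Sprr1b: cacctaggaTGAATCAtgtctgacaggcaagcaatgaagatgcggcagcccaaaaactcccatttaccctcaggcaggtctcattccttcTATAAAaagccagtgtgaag

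Stfa1 (chromosome 16, 36276951 to 36285373, plus strand) starts from a related sequence. Its RefSeq start lies 197 bases inside the annotated span, and that of S100a8 93 bases inside, so their windows overlap the annotated genes. Over the 250 bases before their starts, Stfa1 and Stfa3 had the same base in 83.5% of aligned columns, whereas the other pairs of the 6 genes with a promoter in the table had 44.7% to 52.2%. The 30 bases around the GATA letters, chr16:36277073-36277102 on the plus strand for Stfa1 and chr16:36455440-36455469 on the minus strand for Stfa3, were the same at 26 positions.
Stfa1: agataatgtggaGATAAGacactagaggag
Stfa3: agatattgcagaGATAAGacattagaggag
In windows of 250 bases, searched on both strands over 32807 promoters, GATAAG occurred in 6.55%, TGANTCA in 6.75% and TATAAA in 12.4%. TTGCNNAA, the C/EBP letters, occurred in 9.57% of all promoters and matched S100a9 236 bases and Stfa1 109 bases before the start. S100a8 held TATAAA 30 bases before its start. The letters TTCNNNGAA (STAT, 7.02% of promoters) and the interferon-stimulated response element (2.97%) matched none of the 6, and Klk13 matched none of the 6 motifs. S100a8 (chromosome 3, 90668978 to 90670035) and S100a9 (90692632 to 90695721) lie 22.6 kb apart on opposite strands, and Stfa1 and Stfa3 lie 165 kb apart. Klk13 lies on chromosome 7 (43712567 to 43727534) and Ly6d on chromosome 15 (74762056 to 74763620), all as annotated on mm10. Stfa1 counts are less certain than the others: 160 of the 710 stretches of 50 bases in its transcripts (22.5%) also occur in transcripts of BC100530 and BC117090, neither of which has a column in the tables, and no such stretch was found for the other 6 genes.

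The genes fell into different cells. Most UMIs of Ly6d, Stfa3 and Stfa1 lay in keratinocyte-like cells in every mouse: keratinocyte-like cells held 89.7% to 98.4% of Ly6d UMIs, 93.3% to 99.1% of Stfa3 UMIs and 81.2% to 98.5% of Stfa1 UMIs. Sprr1b followed, with 62.5% of only 8 UMIs in NO_AG mouse 1 and 80.0% to 97.8% in the other 5 mice. S100a8 and S100a9 did not keep to the epidermis. Keratinocyte-like cells held 74.7% to 88.3% of S100a8 UMIs in the 4 NO_AG and AG mice but 6.18% and 13.6% in the AG_CPI mice, where monocyte/macrophage-like cells held 89.9% and 81.4%. The S100a9 shares in monocyte/macrophage-like cells of the AG_CPI mice were 90.5% and 71.2%. Keratinocyte-like cells held 83.3% and 100% of S100a9 UMIs in the NO_AG mice, 100% and 76.4% in the AG mice, and 5% and 26.5% in the AG_CPI mice.

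**Figure D1:**
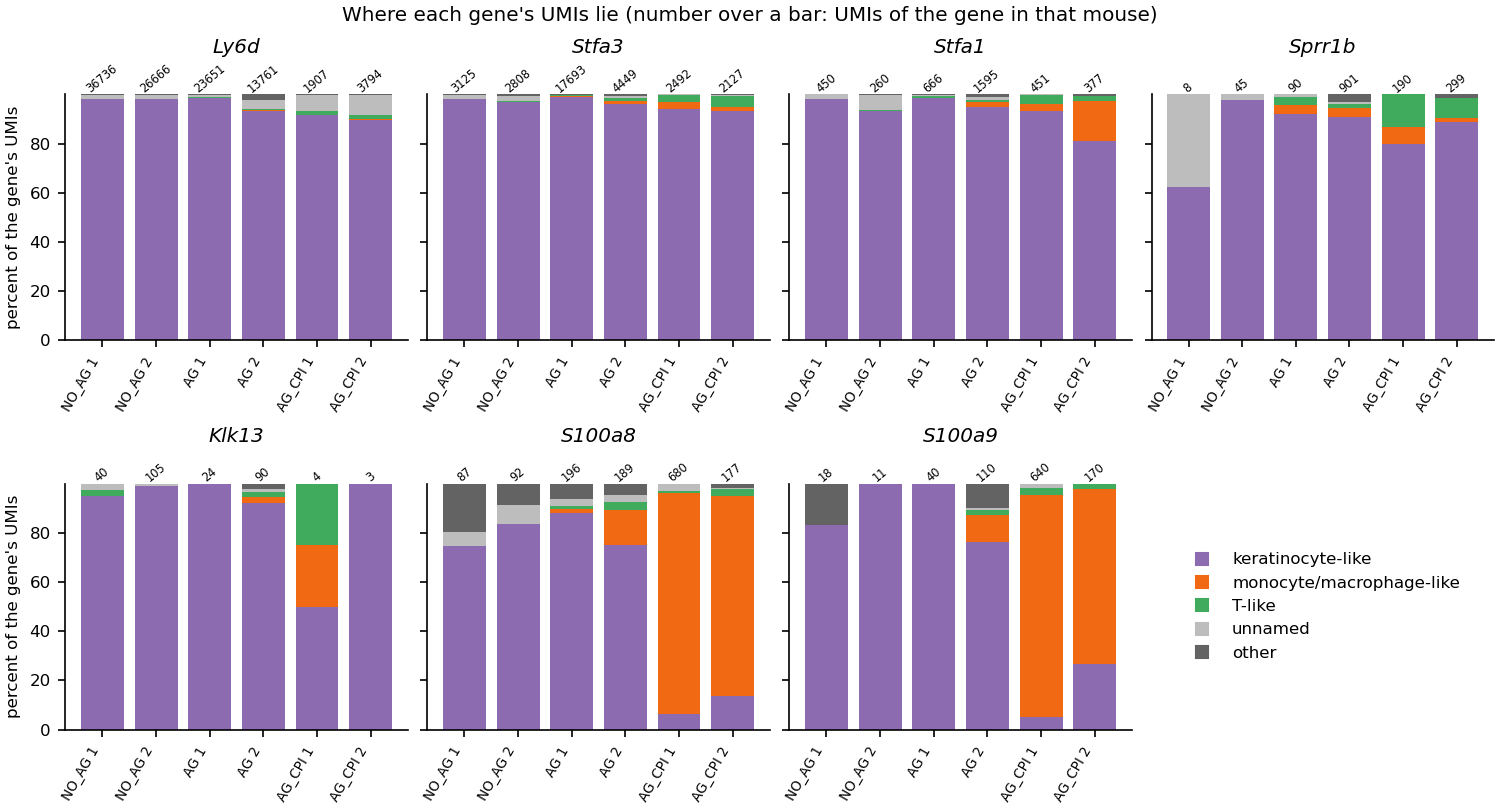
Bars give, for each gene and mouse, the percent of the gene's UMIs lying in each cell class, with the gene's UMI total over the bar. Stfa3, Stfa1, Sprr1b and Ly6d lie mainly in keratinocyte-like cells, and S100a8 and S100a9 lie mainly in monocyte/macrophage-like cells in the 2 AG_CPI mice.

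Of the 5 calls among the members within keratinocyte states, 4 were of Stfa3 and 1 was of Stfa1. In keratinocyte-like cells its mean was 1.57 UMIs per 10000 in each NO_AG mouse, 19.4 and 5.14 in the AG mice, and 29.9 and 9.46 in the AG_CPI mice. All 4 mice with antigen lay above the NO_AG mice, and the 2 antigen groups overlapped. In suprabasal-like cells, which have left the basal layer and started to differentiate, it was 4.34 and 3.63 without antigen, 35.3 and 48.9 for AG, then 105 and 60.4 for AG_CPI. Here the 3 groups did not overlap. Suprabasal-like cells with at least 1 Stfa3 UMI numbered 162 of 358 and 130 of 305 in the NO_AG mice, 213 of 248 and 23 of 24 in the AG mice, and all 20 and all 26 in the AG_CPI mice. With each cell thinned to 1500 UMIs the shares were 26.0%, 23%, 72.2%, 91.7%, 100% and 92.3% in the same order. T-like cells, which should lack the gene, had a Stfa3 UMI in at most 3.68% of thinned cells and 6.01% of unthinned cells, at a median of 2280 to 2737 UMIs a cell against 3139.5 to 8040 in suprabasal-like cells.

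**Figure D2:**
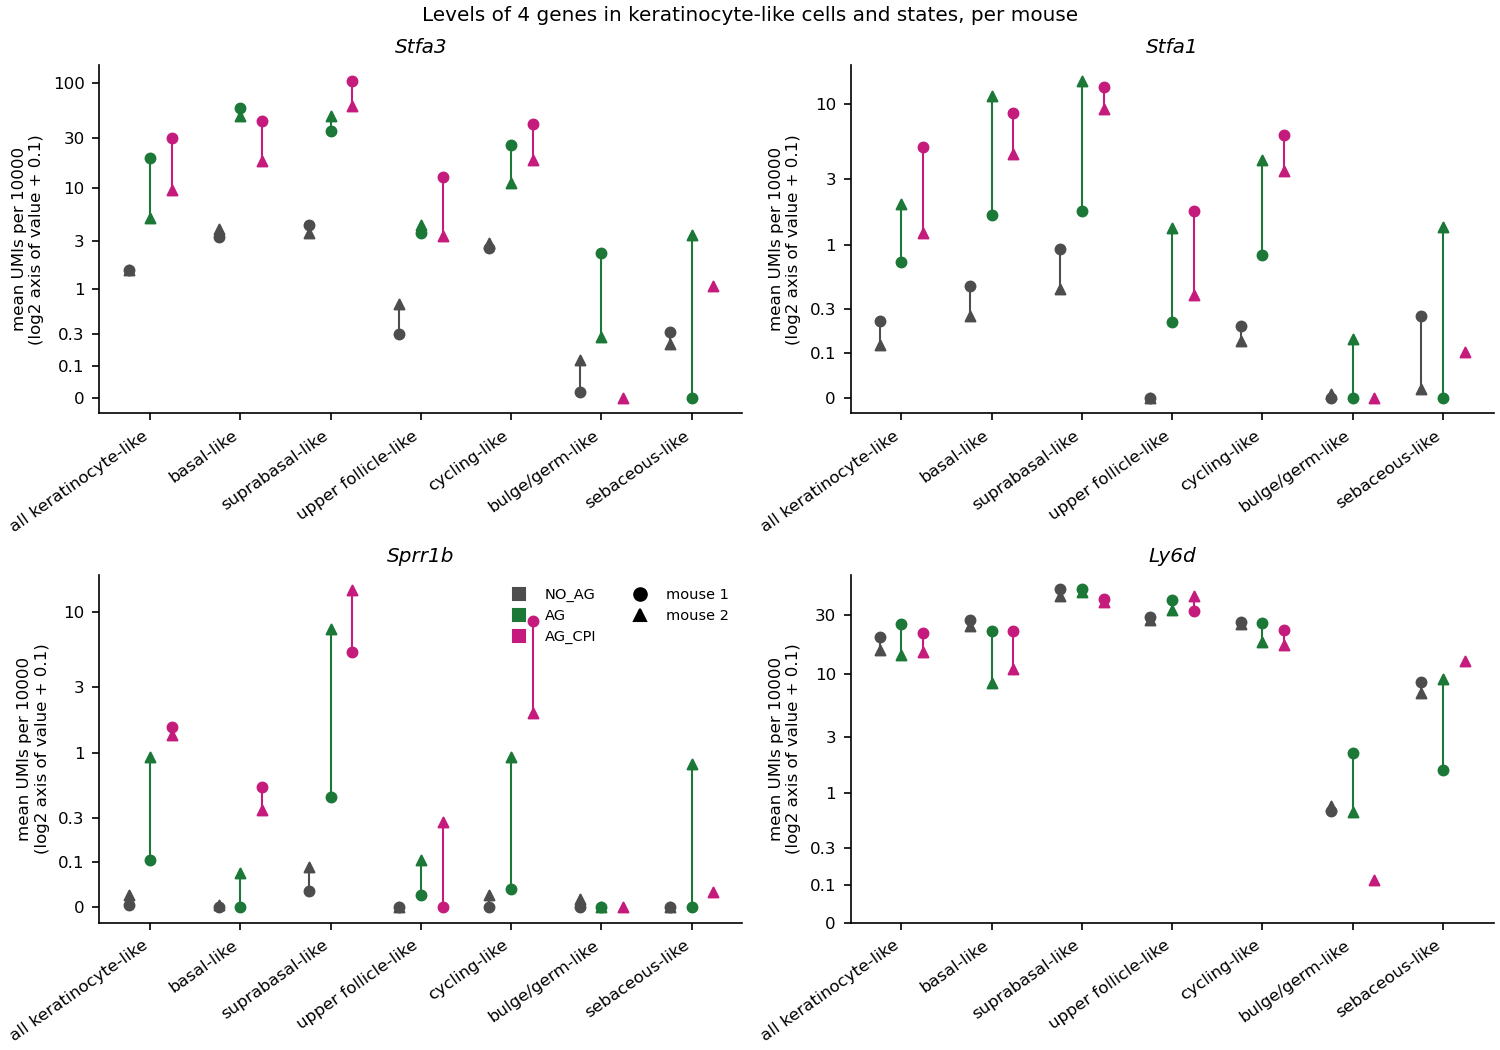
Points give the mean UMIs per 10000 of 4 of the genes in each mouse, in all keratinocyte-like cells and in the named states, on a log2 axis of the mean plus 0.1, coloured by group, with circles for mouse 1, triangles for mouse 2 and a line joining the mice of a group. For Stfa3 the suprabasal-like points of NO_AG lie at 3.63 and 4.34, below the 4 mice with antigen at 35.3 to 105, and for Ly6d the groups lie close together in that state.

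The test was limma on mouse means, with the log2 fold change taken on the scale of log2(mean UMIs per 10000 + 0.1) after TMM scaling and p-values adjusted over all genes tested. In suprabasal-like cells, where 4 of the 7 genes passed the filter on low values, Stfa3 rose in AG against NO_AG by a log2 fold change of 3.48 ± 0.34 (SE), from 3.99 ± 0.50 to 42.1 ± 9.60 UMIs per 10000 (SD, n = 2 mice), with a limma adjusted p of 0.00313. It was the 1 member called there, where 0.116% of the 6890 genes tested were called. In AG_CPI against NO_AG it rose by 4.40 ± 0.34, to 82.9 ± 31.8 UMIs per 10000 (limma adjusted p = 0.00074), again the 1 member called, against 0.116% of all genes. These comparisons share the NO_AG mice. The 2 calls were lost without AG mouse 1, at log2 fold changes of 3.79 and 4.41 (limma adjusted p = 0.185 and 0.0857), and without AG mouse 2, at 3.18 and 4.40 (limma adjusted p = 1 and 0.0779). They were also lost with no filter on low values, at 3.41 and 4.27 (limma adjusted p = 0.189 and 0.0632). Over all alternatives the AG value ranged from 3.18 to 3.79 (adjusted p 2.13e-09 to 1) and the AG_CPI value from 3.90 to 4.94 (adjusted p 1.39e-14 to 0.0857). Without AG_CPI mouse 1 the values were 3.48 and 3.90.

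Basal-like cells, the dividing layer that anchors the interfollicular epidermis, had a Stfa3 mean of 3.30 and 3.98 UMIs per 10000 among NO_AG mice, 57.8 and 49.0 among AG mice, and 43.2 and 17.9 among AG_CPI mice. The NO_AG mice were lowest and the AG mice highest, with no overlap between the 3 groups. These cells were few in 3 mice, at 17 in AG mouse 2 and 22 and 12 in the AG_CPI mice, against 153 to 549 in the other 3. The log2 fold change was 3.86 ± 0.48 in AG against NO_AG and 2.88 ± 0.48 in AG_CPI against NO_AG, neither called (limma adjusted p = 0.0865 and 0.172, with 3 members passing the filter, and 0.0418% and 0.0139% of all genes called). The values were 3.86 and 2.10 without AG_CPI mouse 1, and 3.86 and 3.66 without AG_CPI mouse 2. The median log2 fold change of all genes tested in this state was -0.11 and -0.39 in these comparisons. Different sub-clusters made up the state: sub-cluster 0 held 95.4% and 98.0% of it in the NO_AG mice and 5.88% to 18.3% in the other 4, where sub-cluster 6 held 81.7% to 94.1%. Within sub-cluster 6 alone, Stfa3 was 8.78 and 10.8 UMIs per 10000 for the NO_AG mice (25 and 7 cells), 69.7 and 52.0 for the AG mice, and 41.6 and 19.6 for the AG_CPI mice. In AG mouse 1, whose basal-like cells fell in both sub-clusters, it was 4.94 in the 28 cells of sub-cluster 0 and 69.7 in the 125 of sub-cluster 6. The 4.94 lay close to the NO_AG state means of 3.30 and 3.98, which came mostly from sub-cluster 0. The part of the shift between sub-clusters in the basal-like values was not tested.

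Suprabasal-like cells were also split, with sub-cluster 3 holding 67.6% and 64.6% of them in the NO_AG mice, 24.6% and 4.17% in the AG mice, and 55.0% and 0% in the AG_CPI mice, and sub-cluster 4 the rest. Stfa3 in sub-cluster 4 was 5.39 and 4.00 UMIs per 10000 without antigen, 39.5 and 50.9 for AG, then 149 (9 cells) and 60.4 for AG_CPI. The NO_AG mice were thus lowest within each of sub-clusters 4 and 6 taken alone. The groups are not compared in this way within sub-clusters 0 and 3 here.

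The upper hair follicle-like state, cells of the follicle mouth, held less Stfa3: 0.30 and 0.68 UMIs per 10000 among NO_AG mice, 3.65 and 4.38 among AG mice, and 12.6 and 3.39 among AG_CPI mice. The 4 mice with antigen lay above the NO_AG mice. With 3 members passing the filter, Stfa3 rose in AG_CPI against NO_AG by a log2 fold change of 3.56 ± 0.48 (limma adjusted p = 0.0078), the 1 member called where 0.599% of 6842 genes were called. In AG against NO_AG the value was 2.89 ± 0.48 and was not called (limma adjusted p = 0.0613, 0.0877% of genes called). Its value was 2.90 both without AG_CPI mouse 1 and without AG_CPI mouse 2. The state was a single sub-cluster in all 6 mice. The AG_CPI call was lost without NO_AG mouse 1 (3.12, limma adjusted p = 0.129) and with no filter (3.45, limma adjusted p = 0.162). Without AG_CPI mouse 1 the AG_CPI value was 2.68. Over all alternatives it ranged from 2.68 to 4.41, with a limma adjusted p of at most 0.162.

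Cycling keratinocyte-like cells, marked by genes of cell division, had Stfa3 at 2.58 and 2.89 UMIs per 10000 for the NO_AG mice, 25.6 and 11.2 for the AG mice, and 41.2 and 18.3 for the AG_CPI mice, the last from 18 and 16 cells. NO_AG lay below the other groups, which overlapped. Of the 5 members past the filter, Stfa3 (log2 fold change 3.37 ± 0.48) and Stfa1 (4.16 ± 0.61) rose in AG_CPI against NO_AG, each at a limma adjusted p of 0.0419, where 0.285% of 7363 genes were called. The median of all genes there was -0.12. Both calls sat close to the threshold. That of Stfa3 was lost without NO_AG mouse 1 (3.30, limma adjusted p = 0.281), NO_AG mouse 2 (3.44, limma adjusted p = 0.108), AG mouse 1 (3.38, limma adjusted p = 0.0918) or AG mouse 2 (3.38, limma adjusted p = 0.0980). The Stfa1 call was lost without the same mice, at 4.33, 3.99, 4.17 and 4.17 (limma adjusted p = 0.228, 0.157, 0.0918 and 0.0877). Both were also lost with no filter (limma adjusted p = 0.167 each), after thinning (0.0855 and 0.0949) and with a pseudocount of 0.02 (0.0822 each). Over the alternatives the limma adjusted p ranged from 0.00136 to 0.281 for Stfa3 and from 0.00349 to 0.228 for Stfa1, and each was called in 12 of 21. Without AG_CPI mouse 1 the log2 fold changes were 2.68 for Stfa3 and 3.66 for Stfa1. In AG against NO_AG, neither was called (2.68 and 2.92, limma adjusted p = 0.132 and 0.252, 0.136% of genes called). Their values were 2.68 and 2.93 without AG_CPI mouse 1, and 2.68 and 2.92 without AG_CPI mouse 2. The state joined 2 sub-clusters. Sub-cluster 17 held every cycling cell of the AG and AG_CPI mice and all but 1 of NO_AG mouse 1, whereas 37.3% of those of NO_AG mouse 2 lay in sub-cluster 23. The leading genes of sub-cluster 23 go against its name: Crabp1, Enpp2, Ccl2, Wif1, Ndnf and Spon1 lead it, genes better known from the dermis, and Cenpf was the division gene among its first 10. In sub-cluster 17 alone Stfa3 was 2.59 and 3.65 UMIs per 10000 in the NO_AG mice. Without sub-cluster 23 both calls were kept, at 3.20 for Stfa3 (limma adjusted p = 0.0358) and 4.28 for Stfa1 (limma adjusted p = 0.0314), and Sprr1b, which met the filter in no NO_AG mouse and in 1 mouse of each antigen group when the sub-cluster was in, went from a limma adjusted p of 0.0766 to 0.0459 (5.45), which is no support for a change.

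No state name was given to 1127 and 1050 keratinocyte-like cells of NO_AG, 363 and 1768 of AG, and 79 and 257 of AG_CPI. Such cells held Stfa3 at 0.675 and 0.670 UMIs per 10000 in the NO_AG mice, 6.36 and 4.15 in the AG mice, and 17.4 and 9.07 in the AG_CPI mice. The 3 groups did not overlap there. No test was run on these cells, which belong to no one state. In bulge and germ-like cells, the stem cell region of the follicle, it was 0.01 and 0.13 UMIs per 10000 in NO_AG and 2.33 and 0.28 in AG. The AG_CPI mice had 1 Stfa3 UMI in 9 of these cells and none in 15, where a count of 0 allows up to 0.392 UMIs per 10000, above both NO_AG values. In sebaceous gland-like cells it was 0.33 and 0.22 in NO_AG, listed at 0 in the 15 cells of AG mouse 1, 3.49 in AG mouse 2 and 1.05 in AG_CPI mouse 2. The sebaceous gland-like state was made of different sub-clusters: sub-cluster 7, led by haemoglobin genes, held 76.7% and 58.4% of it in the NO_AG mice and no cell of the other 4, while sub-cluster 15 held all 15 cells of AG mouse 1 and only 2.21% and 2.17% of those of AG mouse 2 and AG_CPI mouse 2. In leukocytes it stayed at or below 0.59 in monocyte/macrophage-like cells and 0.28 in T-like cells. The order of the states within a group was suprabasal, basal and cycling in NO_AG and AG_CPI, and basal, suprabasal and cycling in AG, with the means of suprabasal-like and basal-like cells overlapping in NO_AG, and those of basal-like and cycling cells overlapping in AG_CPI. In AG these 3 states did not overlap.

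Stfa1 was lowest in the NO_AG mice over all keratinocyte-like cells and in the suprabasal-like and basal-like states. Its mean in keratinocyte-like cells was 0.23 and 0.13 UMIs per 10000 without antigen, 0.73 and 1.99 for AG, then 5.02 and 1.22 for AG_CPI. Suprabasal-like cells had 0.92 and 0.45 among NO_AG mice, 1.77 and 14.3 among AG mice, and 12.9 and 9.12 among AG_CPI mice, and basal-like cells had 0.48 and 0.26, 1.67 and 11.3, and 8.58 and 4.44. The 4 mice with antigen lay above the NO_AG mice in all 3, while AG mouse 1 stayed closest to NO_AG. The log2 fold changes in suprabasal-like cells were 2.91 ± 0.78 in AG and 3.97 ± 0.78 in AG_CPI against NO_AG, neither called (limma adjusted p = 0.587 and 0.109). They were 3.36 and 4.45 without NO_AG mouse 1, and 2.45 and 3.54 without NO_AG mouse 2. In the upper hair follicle-like state, where it passed the filter only through mice with antigen, Stfa1 had no UMI in either NO_AG mouse and 0.23, 1.34, 1.78 and 0.40 UMIs per 10000 in the AG and AG_CPI mice.

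Over all keratinocyte-like cells, with the states pooled, cells with Stfa1 held Stfa3 at a higher share than cells without it in every mouse. Both genes differ in level between states, and the part of state makeup in these shares was not tested. Among keratinocyte-like cells with a Stfa1 UMI, 70.9% and 67.2% also had a Stfa3 UMI without antigen, as did 95.1% and 75.3% of those of the AG mice and 93.8% and 91.9% of those of the AG_CPI mice. Among cells without Stfa1 the shares with Stfa3 were 15.2%, 21.0%, 47.8%, 37.1%, 48.6% and 27.2% in the same order. After thinning to 1500 UMIs the shares among Stfa1-positive cells were 50.5%, 39.4%, 90.0%, 63.1%, 91.4% and 90.6%, and those among Stfa1-negative cells were 10.0%, 10.9%, 37.5%, 29.3%, 37.6% and 25.6%. Across 34 mouse-by-state means, which share libraries and depth, Stfa1 and Stfa3 were the most alike of 9380 genes to each other, with a Pearson r of 0.90. Stfa1 was next most like Csta1, another cystatin A gene (0.80), and Stfa3 was next most like S100a11 (0.86).

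Sprr1b had few UMIs without antigen and lay in few cells with it. In suprabasal-like cells it was 0.03 and 0.09 UMIs per 10000 for the NO_AG mice (5 and 36 UMIs), 0.46 and 7.55 for the AG mice (72 and 56 UMIs), and 5.30 and 14.02 for the AG_CPI mice (102 and 194 UMIs). The 3 groups overlapped only through AG mouse 2, which lay among the AG_CPI mice, and all 4 mice with antigen exceeded NO_AG. The single richest suprabasal-like cell gave 66 of the 102 UMIs in AG_CPI mouse 1 and 89 of the 194 in AG_CPI mouse 2. Basal-like cells held at most 2 Sprr1b UMIs in any mouse. The log2 fold change in suprabasal-like cells was 3.81 ± 0.98 in AG and 5.88 ± 0.98 in AG_CPI against NO_AG, neither called (limma adjusted p = 0.543 and 0.0766). Neither NO_AG mouse met the filter for Sprr1b here, so it was tested only through the mice with antigen, where it is high, and its p-values support nothing about it. The log2 fold changes were 3.55 and 5.64 without NO_AG mouse 1, and 4.05 and 6.14 without NO_AG mouse 2.

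Over all keratinocyte-like cells Sprr1b was 0.00340 (5 UMIs) and 0.0197 UMIs per 10000 without antigen, 0.11 and 0.94 for AG, then 1.57 and 1.37 for AG_CPI, with the AG_CPI mice above both AG mice. Among sub-clusters of at least 10 cells in AG mouse 2, the highest levels were in keratinocyte sub-clusters that received no state name, at 21.1 in the 24 cells of sub-cluster 22 and 12.1 in the 51 cells of sub-cluster 33. Of Sprr1b-positive keratinocyte-like cells, 89.3% and 65.9% had a Stfa3 UMI in the AG mice and 100% and 96.8% in the AG_CPI mice, against 55.1%, 45.8%, 63.7% and 30.1% of Sprr1b-negative cells. After thinning to 1500 UMIs the shares were 85.7%, 51.6%, 100% and 97.7% against 26.2% to 50.3% of Sprr1b-negative cells. The share was higher in Sprr1b-positive cells in each of the 4 mice, with the states pooled. The NO_AG mice had 5 and 9 Sprr1b-positive cells, of which 5 and 2 held Stfa3, against 18.9% and 23.5% of Sprr1b-negative cells. Over the 34 means, the 3 genes most like Sprr1b were the stress keratin Krt6b (0.84), F3, which encodes tissue factor (0.81), and the stress keratin Krt16 (0.81). A list of 10 stress keratin markers summed to 0.72 and 0.40 UMIs per 10000 in suprabasal-like cells of NO_AG, 2.77 and 58.7 of AG, and 8.75 and 28.4 of AG_CPI. AG mouse 2 and AG_CPI mouse 2 were thus highest for this list. Of its 10 markers, 6, 7, 6, 8, 5 and 7 had a UMI in the 6 mice in that order, Il24 was at 0 in each, and the list's part in the Sprr1b values was not tested.

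Ly6d was called in no comparison in which it was tested. In keratinocyte-like cells it was 19.8 and 15.6 UMIs per 10000 among NO_AG mice, 25.5 and 14.2 among AG mice, and 21.5 and 14.9 among AG_CPI mice. Suprabasal-like cells had 48.6 and 42.4, 48.6 and 45.8, and 40.6 and 38.4 in the same groups. Upper hair follicle-like cells had 28.7 and 27.1, 39.9 and 33.0, and 32.3 and 42.7. The groups overlapped over all keratinocyte-like cells, and the state means ran from 27.9 to 47.2 in these 2 states against 0.73 ± 0.06 in bulge and germ-like cells of NO_AG and 1.44 ± 1.09 of AG (SD, n = 2). Bulge and germ-like cells of the AG_CPI mice held 5 Ly6d UMIs in 9 cells and 1 in 15 cells, or 1.41 and 0.122 UMIs per 10000.

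Basal-like cells held Ly6d at 27.2 and 24.3 UMIs per 10000 for the NO_AG mice, 22.2 and 8.38 for the AG mice, and 22.2 and 10.9 for the AG_CPI mice. Both NO_AG mice were above the other 4. The log2 fold change there was -0.89 ± 0.58 in AG and -0.75 ± 0.58 in AG_CPI against NO_AG, neither called (limma adjusted p = 0.987 and 0.548). In suprabasal-like cells it was 0.18 ± 0.23 and -0.09 ± 0.23, with 95% intervals from -0.33 to 0.69 and from -0.60 to 0.42. Over the mouse-by-state means Ly6d was most like Tmem45a (Pearson r = 0.93), Clca3a2 (0.91) and Gltp (0.90).

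Klk13 was close to the limit of detection. Keratinocyte-like cells held 38 and 104 Klk13 UMIs in the NO_AG mice, 24 and 83 in the AG mice, and 2 and 3 in the AG_CPI mice, or 0.0182 and 0.0709, 0.0439 and 0.120, and 0.0285 and 0.00939 UMIs per 10000. The NO_AG mice overlapped each of the other groups, while both AG_CPI mice lay below both AG mice. The AG_CPI values rest on 2 and 3 UMIs, so the depth there does not set a level apart from 0. Klk13 passed the filter on low values in no class or state and so has no test in the main fit.

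Tested over all keratinocyte-like cells, the 6 members that passed the filter gave no call. Of these, S100a8, S100a9 and Sprr1b met the filter in no NO_AG mouse and so were tested only through mice with antigen. In AG against NO_AG, limma called 0 of the 6 at an adjusted p of 0.05, with 3 at an unadjusted p under 0.05, where 0.241% of 8294 genes were called and 6.32% had such a p. In AG_CPI against NO_AG it called 0 of 6, with 4 at an unadjusted p under 0.05, where 0.0482% were called and 12.2% had such a p. In AG_CPI against AG it called 0 of 6, with 2 at an unadjusted p under 0.05, where 0% were called and 6.98% had such a p. The log2 fold changes of Stfa3, Stfa1 and Sprr1b were 2.66 ± 0.72, 2.30 ± 0.69 and 2.08 ± 0.64 (SE) in AG against NO_AG. They were 3.42 ± 0.72, 3.29 ± 0.69 and 3.85 ± 0.64 in AG_CPI against NO_AG. The smallest limma adjusted p among these 6 values was 0.117, for Sprr1b in AG_CPI. The log2 fold change of Sprr1b in AG_CPI was 3.86 without AG mouse 1 and 3.84 without AG mouse 2. That of Sprr1b in AG was 3.24 without AG mouse 1. The makeup of the keratinocyte-like cells differed between mice, and 1768 of 2267 in AG mouse 2 had no state name, so these values mix states in unequal parts.

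**Figure D3:**
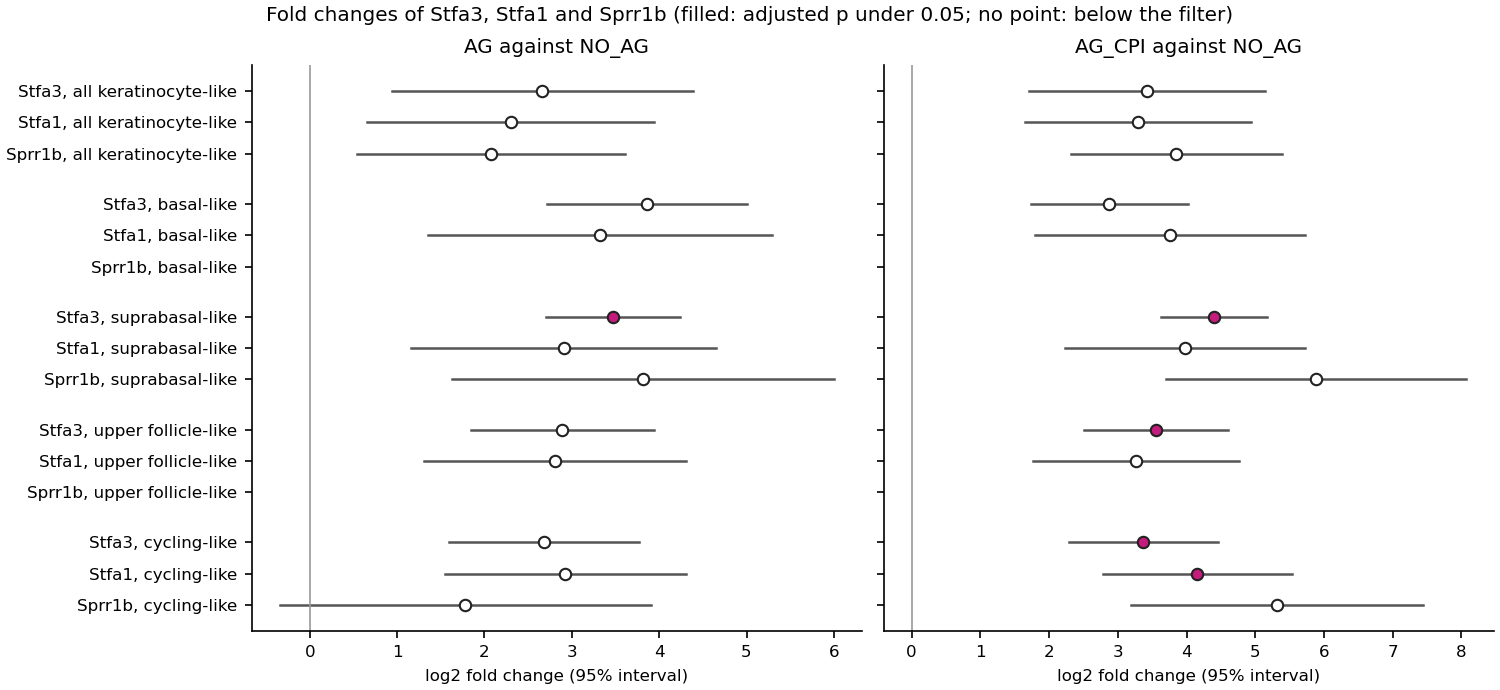
Points give the log2 fold change against NO_AG of Stfa3, Stfa1 and Sprr1b in keratinocyte-like cells and in named states, with the 95% interval of the limma fit as bars and filled points for an adjusted p under 0.05. The filled points are Stfa3 in suprabasal-like cells in both comparisons (3.48 and 4.40), Stfa3 in the upper hair follicle-like state (3.56), and Stfa3 and Stfa1 in cycling cells (3.37 and 4.16) in AG_CPI.

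Over the 6 states tested in AG against NO_AG, 1 of 21 member tests was called, with 10 at an unadjusted p under 0.05, against 0.137% and 4.87% of the tests of all genes in these states. Over the 4 states tested in AG_CPI against NO_AG, 4 of 15 were called, against 0.251% of all tests. Sprr1b in suprabasal-like and cycling cells and Stfa1 in upper hair follicle-like cells are among the tests that passed the filter only through mice with antigen. In AG_CPI against AG, limma called 0 of 15 over the same 4 states, with 2 at an unadjusted p under 0.05, against 0.0106% and 11.9% of all tests, so the members' count lay near that of all genes. For Stfa3 in suprabasal-like cells the AG_CPI against AG log2 fold change was 0.92 ± 0.34, with a 95% interval from 0.16 to 1.69 (limma adjusted p = 0.527). Of all genes, 0.0145% were called there in suprabasal-like, 0.0146% in upper hair follicle-like, 0.0139% in basal-like and 0% in cycling cells. In AG against NO_AG no member was called in bulge and germ-like or sebaceous gland-like cells, where 0.372% and 0.0322% of all genes were; there limma gave 1 of 2 and 0 of 4 members at an unadjusted p under 0.05, against 7.68% and 6.37% of all genes. Leaving out 1 mouse moved these counts, and the share of all genes called moved too. With AG against NO_AG there were 3 calls without NO_AG mouse 1 or NO_AG mouse 2 (0.185% and 0.195% of all tests), 4 without AG mouse 2 (4.2%), and 6 without AG_CPI mouse 1 or AG_CPI mouse 2 (0.596% and 0.602%). For AG_CPI against NO_AG there were 2 without AG mouse 1 or AG mouse 2 (2.1% and 2.37%), 7 without AG_CPI mouse 1 (11.4%) and 8 without AG_CPI mouse 2 (10.2%). For AG_CPI against AG there was 1 without NO_AG mouse 1 or NO_AG mouse 2 (0.0425% and 0.0418%), 3 without AG_CPI mouse 1 (10.1%) and 4 without AG_CPI mouse 2 (6.33%). Whether the change with antigen differed between suprabasal-like and basal-like cells was tested as an interaction in AG against NO_AG. The difference was -0.42 ± 0.54 for Stfa3, -0.42 ± 0.48 for Stfa1, 1.03 ± 0.68 for Ly6d and 3.50 ± 1.16 for Sprr1b. None of the 4 was called by limma (adjusted p = 1.00 each), and 0% of 7812 genes were called. Sprr1b alone had an unadjusted p under 0.05, as did 0.525% of all genes, but it met the filter in no mouse in basal-like cells and in no NO_AG mouse in suprabasal-like cells, so its value supports no difference between the states.

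Levels of leukocyte markers differed between mice beside these values. In keratinocyte-like cells the T-like marker list summed to 0.77 and 1.26 UMIs per 10000 without antigen, 1.26 and 5.25 for AG, then 2.22 and 4.69 for AG_CPI. The monocyte/macrophage-like list summed to 1.40 and 1.40, 1.85 and 5.91, and 4.70 and 3.62. Depth and the share of mitochondrial UMIs, a sign of RNA quality, also differed between mice. The median mitochondrial share of keratinocyte-like cells was 3.82% and 3.83% in the NO_AG mice, 3.36% and 6.26% in the AG mice, and 5.10% and 6.20% in the AG_CPI mice, and the median depth was 5276 and 6066, 6890 and 2397, and 3629 and 2331 UMIs. AG mouse 1 thus lay with the NO_AG mice in both. The part of these marker, mitochondrial and depth differences in the member values was not tested. T-like cells themselves held Stfa3 at 0.04 to 0.28 UMIs per 10000, and monocyte/macrophage-like cells of the 4 mice with antigen at 0.27 to 0.59.

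S100a8 and S100a9 were scarce in keratinocytes in all groups. S100a8 in keratinocyte-like cells was 0.0416 and 0.0531 UMIs per 10000 among NO_AG mice (65 and 77 UMIs), 0.155 and 0.201 among AG mice (173 and 142 UMIs), and 0.786 and 0.0837 among AG_CPI mice (42 and 24 UMIs). Both NO_AG mice were lowest, and AG_CPI mouse 2 lay below the AG mice. S100a9 was 0.0151 and 0.00426 for the NO_AG mice, 0.0309 and 0.130 for the AG mice, and 0.674 and 0.137 for the AG_CPI mice, with the AG_CPI mice highest. In AG_CPI mouse 1, 4 cycling cells held 30 of the 42 S100a8 UMIs, and 3 held 22 of the 32 S100a9 UMIs. The log2 fold changes were 0.94 ± 0.66 and 0.67 ± 0.56 in AG, and 1.51 ± 0.66 and 2.00 ± 0.56 in AG_CPI against NO_AG, none called (limma adjusted p = 0.904, 0.940, 0.420 and 0.256). Without AG_CPI mouse 2 the S100a8 value in AG_CPI was 2.67. Neither gene met the filter in a NO_AG mouse here, so both were tested only through mice with antigen, and their p-values support nothing about them. Among S100a8-positive keratinocyte-like cells, 8.82%, 7.14%, 11.4%, 10.6%, 28.6% and 54.5% also held S100a9 in the 6 mice, NO_AG first and AG_CPI last. The last 2 shares rest on 14 and 11 cells.

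In monocyte/macrophage-like cells, phagocytes of the skin, the 2 alarmin genes were high in the AG_CPI mice. These cells numbered 7 and 3 in the NO_AG mice, too few to test, 162 and 536 in the AG mice, and 244 and 203 in the AG_CPI mice. S100a8 was 0.0138 and 0.140 UMIs per 10000 in AG, and 15.5 and 3.86 in AG_CPI. S100a9 had no UMI in AG mouse 1, was 0.0547 in AG mouse 2, and was 15.6 and 3.88 in AG_CPI. The AG_CPI mice lay above the AG mice for both genes. With 4 of the 7 members past the filter, limma called 2, where 0.651% of 6605 genes were called: S100a8 differed by a log2 fold change of 5.58 ± 0.44 (adjusted p = 5.47e-07) and S100a9 by 6.00 ± 0.41 (adjusted p = 1.32e-07). S100a9 met the filter in no AG mouse and S100a8 in 1, so both were tested only because they are high in the AG_CPI mice, and the 2 calls support nothing beyond the levels given. Stfa1 in these cells had no UMI in AG mouse 1, was 0.175 UMIs per 10000 in AG mouse 2, and was 0.0874 and 1.79 in AG_CPI. The value of 1.79 lay above the 1.22 of the same mouse's keratinocyte-like cells, and 1 cell held 53 of its 61 UMIs. Stfa1 (1.86, limma adjusted p = 0.451) and Stfa3 (0.57, limma adjusted p = 0.646) were not called. Stfa1 met the filter in 1 mouse of each of these groups. Its value was 1.15 without AG mouse 1 and 3.52 without AG_CPI mouse 1, where AG_CPI rests on mouse 2 and its 1 rich cell.

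Those levels rested on 5 cells. In AG_CPI mouse 1, 4 of 244 cells held 5 or more UMIs of the 2 genes and carried 1141 of the 1190 UMIs (95.9%). In AG_CPI mouse 2, 1 of 203 cells carried 232 of the 265 (87.5%). Without such cells S100a8 was 0.0138 and 0.128 UMIs per 10000 in AG and 0.372 and 0.305 in AG_CPI, and S100a9 was 0 and 0.0179 in AG and 0.0661 and 0 in AG_CPI. S100a8 then still lay higher in both AG_CPI mice, while S100a9 overlapped between the groups. The cells were shallow, with a median of 2007 and 1537 UMIs against 5620.5 and 6075 in the rest. Retnlg, a neutrophil gene, had 37 UMIs in 2 of the 4 cells and 48 in the 1 cell, and no UMI in any other monocyte/macrophage-like cell of the 6 mice. Mmp8 and Lcn2 were each found in 3 of the 4 cells and in the 1 cell, whereas Camp and Ltf were at 0 in all 5. Csf3r, Cxcr2, Mmp9, G0s2, Trem1 and Mxd1 had a UMI in at least 1 of the 4 cells and in the 1 cell. Il1r2, Hdc, Clec4e, Clec4d and Slfn4 had one in at least 1 of the 4 cells but none in the 1 cell. In the other cells of AG_CPI mouse 2, Il1r2, Clec4e and Clec4d had a UMI in 21.8%, 37.6% and 48.0%. Of the 16 neutrophil markers with a column, 12 and 14 had a UMI in the monocyte/macrophage-like cells of the AG mice and 16 and 16 in those of the AG_CPI mice. The list summed to 3.79 and 7.74 UMIs per 10000 in AG and 9.80 and 8.97 in AG_CPI. The part of neutrophils in the 2 calls was not tested. Both calls were lost with robust shrinkage of the spread, at a limma adjusted p of 0.535 for S100a8 and 0.452 for S100a9, the highest over their alternatives. Without AG_CPI mouse 1 the S100a8 value was 4.59, and S100a9 did not pass the filter without either AG_CPI mouse.

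**Figure D4:**
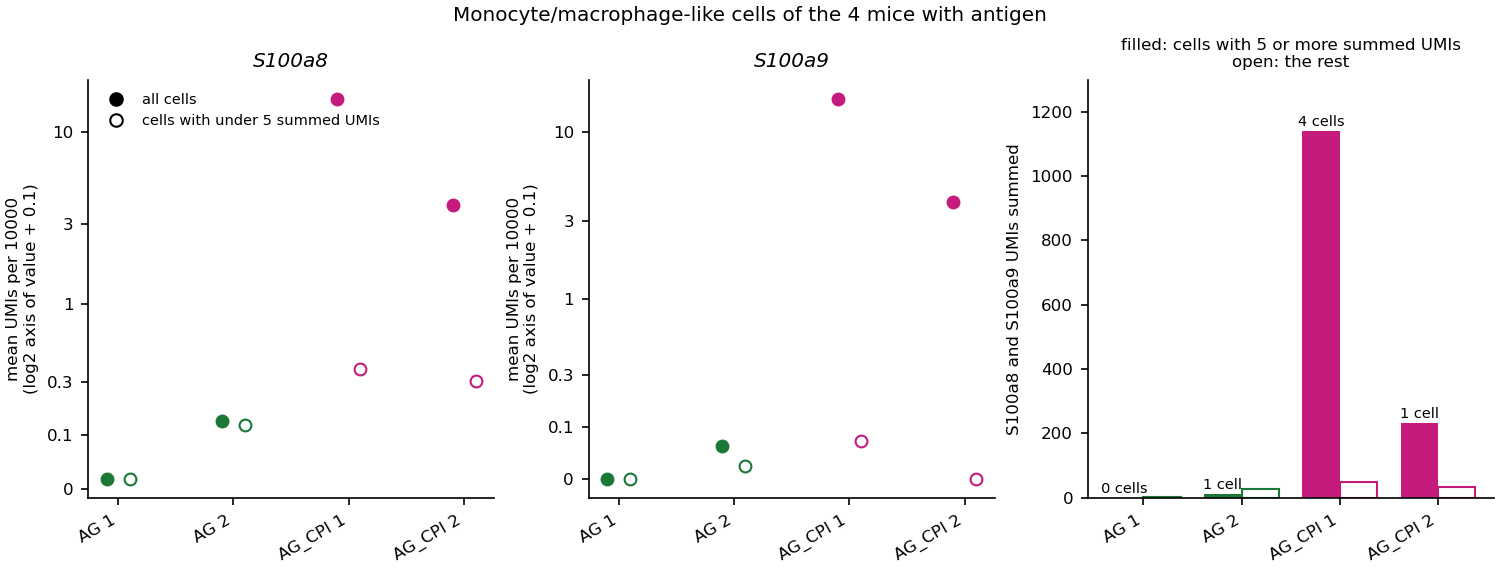
Points give S100a8 and S100a9 in monocyte/macrophage-like cells of the 4 mice with antigen, with all cells (filled) and without cells holding 5 or more UMIs of the 2 genes (open), on a log2 axis of the mean plus 0.1, beside bars of the summed UMIs in those cells (filled) and in the rest (open). S100a8 in the AG_CPI mice goes from 15.5 and 3.86 to 0.372 and 0.305 UMIs per 10000.

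The relatives of the members gave no call over all keratinocyte-like cells in either comparison with NO_AG, in any of 9 gene lists. In AG against NO_AG, 0 of 9 S100 family genes, 0 of 4 cystatins and stefins, 2 of 12 cornified envelope genes, 0 of 10 kallikreins and their inhibitors, and 1 of 5 Ly6/uPAR genes had an unadjusted limma p under 0.05, as did 6.32% of all genes. Their median log2 fold changes were 0.19, 0.26, 0.29, 0.22 and 0.31, against -0.02 over all genes tested. The stress keratins and wound genes had a median of 0.53 with 8 of 10 positive and 1 at an unadjusted p under 0.05. Krt16, a keratin of wounded epidermis, was 3.48 (limma adjusted p = 0.226) in AG and 4.11 (limma adjusted p = 0.141) in AG_CPI against NO_AG. Inflammatory and antimicrobial genes had a median of 0.34 (1 of 10 at an unadjusted p under 0.05), S100a8/S100a9 receptors 0.52 (0 of 2), and type 17 genes -0.03 (1 of 7).

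In AG_CPI against NO_AG, 3 of 9, 0 of 4, 1 of 12, 1 of 10 and 2 of 5 of the first 5 lists had an unadjusted p under 0.05, as did 12.2% of all genes, with medians of -0.07, 0.05, -0.07, -0.09 and 0.42. The stress keratin list had 3 of 10, the inflammatory list 2 of 10, the receptors 1 of 2 and the type 17 list 3 of 7, with medians of 0.58, 0.12, 0.66 and -0.15. Within states, list genes were called in the following tests. In suprabasal-like cells, where 0.116% of all genes were called in AG_CPI against NO_AG, the cystatin relative Cst6 fell by 2.78 on the log2 scale (limma adjusted p = 0.00176) and Krt17, a keratin of follicles and wounds, fell by 2.74 (limma adjusted p = 0.0012). Krt17 also fell in AG_CPI against AG, by 3.64 in suprabasal-like cells (limma adjusted p = 0.000265, 0.0145% of genes called) and fell by 5.23 in basal-like cells (limma adjusted p = 0.0257, 0.0139% called). The upper hair follicle-like state had calls in both directions. Krtdap, which encodes a keratinocyte differentiation-associated protein, rose in AG and in AG_CPI against NO_AG, by 1.95 and 2.07 (limma adjusted p = 0.0129 and 0.00478). Tmprss4, a membrane serine protease on the kallikrein list, rose by 2.05 and 1.90 (limma adjusted p = 0.0129 and 0.0078). The kallikreins Klk8 and Klk5 fell by 2.17 and 1.66 in AG_CPI against NO_AG (limma adjusted p = 0.0436 and 0.0478), and the cystatin Cstb fell by 1.84 (limma adjusted p = 0.00665), where 0.599% of all genes were called. In cycling cells the beta-defensin Defb6 fell by 2.73 in AG_CPI against NO_AG (limma adjusted p = 0.031, 0.285% called). Krt17, Cst6, Defb6 and Krtdap are themselves markers used to name keratinocyte states, and none was left out of the clustering. Their calls within states are therefore no independent support for a change. Tmprss4 and Cstb, which are not state markers, were not left out of the clustering either.

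In monocyte/macrophage-like cells, where 0.651% of 6605 genes were called in AG_CPI against AG and 7.34% had an unadjusted p under 0.05, 4 of 12 inflammatory and antimicrobial genes rose, with a list median of 0.82 against -0.01 over all genes. They included Saa3, an acute-phase serum amyloid (3.54, limma adjusted p = 1.32e-07), Il1a (1.69, limma adjusted p = 0.00398) and the neutrophil chemoattractant Cxcl2 (1.10, limma adjusted p = 0.0144). From the other lists, the protease gene Plau fell by 1.2 (limma adjusted p = 0.019) and the cytokine gene Tnf by 1.32 (limma adjusted p = 0.0286).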

How the data were processed

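Cells of 6 mice were measured with a 5' droplet kit. The deposited values are log10 of 1 plus UMIs per 10000 UMIs of the cell, as the values show; Cell Ranger 3.1 and mm10 are named in the submitters' processing notes, with no role stated. Whole UMIs were recovered from the log10 values for 100% of entries (tolerance 0.05). Because the deposited unit is a log10 value, no count model was used. Cells with under 200 genes or over 20% mitochondrial UMIs were left out, as were the cells with the highest doublet scores, at a rate rising with library size. Cells were clustered with scanpy 1.11.5 (2000 variable genes, 30 components, 15 neighbours, Leiden resolution 1.0) without 42 genes, the members and their relatives in the stefin A, Sprr, Klk and Ly6 families. Clusters were named by marker score (minimum 0.4, states 0.5, margin 0.1, at least 3 detected markers). Names depend on this rule: it followed 4 earlier rules, member means had been seen when it and rule 4 were set, and tests on an earlier partition had been seen too. The others are alternatives.

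Per mouse and class (at least 10 cells), means were TMM-scaled, and limma 3.58.1 in R 4.3.3 was fitted to log2(mean + 0.1) with group as the only term and all mice in the fit. Genes needed 10 UMIs and a mean of 0.1 in 2 libraries. P-values were Benjamini-Hochberg adjusted over all genes (threshold 0.05). The script was tested on simulated data. An exact permutation test of 2 against 2 mice cannot go below 0.333 (two-sided). The mouse is the replicate; nothing in the labels names a batch. All 7 members are named in every comparison, with up to 3 genes a list that passed, or 2 with the smallest p, and the 3 genes most like each member. The members and lists were chosen with earlier results of these data known. Intervals, floors of 3 UMIs and thinning to 1500 UMIs cover counting error only. Fewer cells of a kind and less RNA per cell cannot be told apart in summed values.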

Additional observations from a re-analysis of the deposited data

Results flagged for a closer look

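Members had UMIs outside their main cell classes in some mice with antigen, at more than 2 times the highest NO_AG mouse and above the level of 3 UMIs there. No group has more than 2 mice, so no sample was tested for standing apart from its group. In T-like cells, Stfa3 was 0.248 UMIs per 10000 in AG mouse 1, 0.282 in AG_CPI mouse 1 and 0.256 in AG_CPI mouse 2, against at most 0.0675 in NO_AG. Sprr1b there was 0.0406 in AG mouse 2, 0.0860 in AG_CPI mouse 1 and 0.0710 in AG_CPI mouse 2, and had no UMI in NO_AG. Stfa1 was 0.0378 in AG mouse 2 and 0.0581 in AG_CPI mouse 1, against at most 0.0183. S100a9 was 0.0485 in AG_CPI mouse 1 (13 of 1197 cells), with no UMI in NO_AG.

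In the 48 endothelial-like cells of AG mouse 2, Ly6d was 6.33 UMIs per 10000 (27 cells, against at most 0.468 in NO_AG), Sprr1b was 0.587 and Stfa3 was 0.514, the last 2 with no UMI in NO_AG. Stfa3 was 0.338 in Langerhans-like cells of AG mouse 1 (11 UMIs in 3 of 35 cells, against at most 0.0296) and 0.258 in its gamma-delta T-like cells (10 of 151 cells), with no UMI in the latter in NO_AG. These 14 values carry no test.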

How the results depend on the processing

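With 2 mice a group, calls turned on single mice, while the sign of each of the 7 calls was the same under every alternative that could be fitted. Of the alternatives to counts of calls, 135 stayed within 1.5 times and 39 moved. Over all keratinocyte-like cells, the count in AG against NO_AG went from 0 to 1 with an equal-weight mean over states (0.74% of all genes called, against 0.241%), and ranged from 0 to 1 when each mouse was left out (1 without AG mouse 1, with 0.646% of all genes). In AG_CPI against NO_AG it went from 0 to 1 with UMI sums, 2 under naming rule 1 and 3 with an equal-weight mean (0.463%, 0.364% and 1.49% of all genes, against 0.0482%), and ranged from 0 to 1 when each mouse was left out (0.0121% to 0.556%). Within states in AG against NO_AG, the count went from 1 of 21, with 0.137% of all tests called, to 0 with no filter (0.0105%), to 2 with a pseudocount of 0.5, the deposited scaling alone, UMI sums, doublets kept, another clustering seed or naming rule 4 (0.0828% to 0.232%), to 3 with naming rule 2 or resolution 0.5 (0.163% and 0.117%), and to 4 of 8 with at least 30 cells (1.03%). Leaving out each mouse gave 1 to 6 (0.185% to 4.2% of all tests). In AG_CPI against AG, leaving out each mouse gave 0 to 4 (0% to 10.1%, against 0.0106%). In AG_CPI against NO_AG the count went from 4 (0.251% of all tests) to 0 with no filter, 2 after thinning and 1 under naming rule 1 (0.012%, 0.187% and 0.0892%), and leaving out each mouse gave 2 to 8 (0.124% to 11.4%). In monocyte/macrophage-like cells it went from 2 to 0 with robust shrinkage, while the share of all genes went from 0.651% to 0.908%, and leaving out each mouse gave 1 to 3 (0.11% to 6.98%). The share of all tests moved with the setting too, so a higher count of members is not by itself a result about them.

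The replicate block, with mice paired by number, gave 7 calls within states in AG against NO_AG, 8 in AG_CPI against NO_AG, and 2 over all keratinocyte-like cells in AG_CPI against NO_AG, where it called 0.518%, 0.662% and 0.543% of all tests, against 0.137%, 0.251% and 0.0482% without it. Same-numbered mice correlated at 0.101 (AG and NO_AG), 0.220 (AG and AG_CPI) and 0.168 (AG_CPI and NO_AG) over 2 numbers only. The labels name no shared litter or batch, so what same-numbered mice share beyond the number is not known.

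Signs that turned were those of uncalled values. In AG against NO_AG over keratinocyte-like cells, Ly6d was -0.27 without AG mouse 1, -0.04 without NO_AG mouse 2 and -0.35 under naming rule 1. In AG_CPI against AG, Ly6d was 0.37 without AG mouse 1, 0.23 without AG_CPI mouse 2 and 0.13 under naming rule 1. Without AG_CPI mouse 1, S100a8 was -0.62, Stfa1 -0.040 and Stfa3 -0.12, and Stfa3 was -0.23 without AG mouse 2. In AG_CPI against NO_AG, Ly6d was -0.21 without AG_CPI mouse 1, -0.13 without NO_AG mouse 2, -0.22 under naming rule 1 and -0.062 with an equal-weight mean. Stfa3 in monocyte/macrophage-like cells was -0.80 with doublets kept, and its difference between states was 0.023 without AG mouse 1. The values without 1 mouse ranged to 0.63 and -0.53 for Ly6d in the first 2 comparisons and 0.41 in the third, to 1.73 for S100a8, 2.01 for Stfa1 and 1.73 for Stfa3 in AG_CPI against AG, and to -0.85 for the Stfa3 difference between states. The cause was not tested in any of these. Naming rules, the clustering seed, robust shrinkage and the states without sub-clusters 7 and 23 were chosen after seeing the data. Where a mouse left out leaves 1 in a group, that mouse is assumed to vary like the other groups. Klk13 in the AG_CPI mice rests on 2 and 3 UMIs.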
